A study of Mus musculus with 6 samples.

Results

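The genes described here are the chemokines, cytokines, their receptors and the NF-kB signalling genes of a mouse ovarian cancer model. They were chosen by gene symbol alone, with a pattern that takes the Ccl, Cxcl, Il, Csf, Tlr, Jak, Socs and Nfkb families, together with prostaglandin synthesis, complement, Lcn2 and a few related names, and 72 of the 7320 genes in the deposited table matched. The study compared ID8 cells, a spontaneously immortalized clonal line from the ovarian epithelium of C57Bl6 mice, with KMF cells, also labelled ID8-IP. KMF cells derive from ID8 cells passaged through the mouse peritoneal cavity. The study describes DNA gains and losses in them on several chromosomes, among them spontaneous gains of Myc and FAK. The part of copy number in the expression values that follow was not tested. No treatment or engineered allele is labelled for either line, and both were cultured unattached in serum-free PromoCell XF medium, where they form floating clusters (tumorspheres), over 5 days.

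Each line gave 3 libraries of poly-A RNA, prepared at passages 23, 24 and 35 for ID8 replicates 1 to 3 and at passages 14, 17 and 22 for KMF replicates 1 to 3. Because each line is 1 cell population, the p-values measure the spread between RNA samples of that line at different passages. From 23108407 to 33212313 fragments were assigned to genes per library, and the listed genes carried 52.8% to 55.9% of them. Levels are given as FPKM, fragments scaled to gene length in kilobases and to library depth, as deposited. Changes are log2 fold changes of KMF over ID8 with their standard error (SE), from edgeR's quasi-likelihood test on the raw counts. A gene was called at a Benjamini-Hochberg adjusted p under 0.05, and each call was made again under 15 alternatives, of which 6 left out 1 library each and the others changed the tool, scaling, filter or design.

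The deposited table lists only genes that its authors had already found different between these same 6 libraries. The edgeR test therefore called 92.9% of the 6967 genes it could fit, and a call on a member adds no independent evidence. Chemokines, cytokines or receptors outside the table were not analysed here. Of 21 leukocyte and macrophage markers, only Cd74 was in the table, at a level between 0.857 and 1.59 FPKM in ID8 and between 0.215 and 0.391 FPKM in KMF. Fibroblast markers were represented by 4 of 9 genes (Col1a1, Col3a1, Dcn and Pdgfra), which summed to between 77.3 and 107.3 FPKM in ID8 and between 13.5 and 25.9 FPKM in KMF, and all 4 fell. Of 16 ovarian surface epithelium and mesothelium markers, 11 were listed, of which 1 (Msln) rose and 8 fell, with summed levels of 234.0 to 338.3 FPKM in ID8 and 212.4 to 254.6 FPKM in KMF. Of 10 endothelial markers, 3 were listed, and their sum of 0.0501 to 0.0877 FPKM in ID8 and 27.8 to 47.6 FPKM in KMF came almost wholly from Tek, the angiopoietin receptor. In bulk RNA, fewer cells that express a gene and less RNA per cell cannot be told apart, and the part of these marker differences in the values that follow was not tested.

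Chemokines are small secreted proteins that guide migrating cells through G protein-coupled receptors. Interleukins and related cytokines bind paired receptor chains, most of which signal through JAK kinases and STAT transcription factors and are damped by SOCS proteins. Toll-like receptors and the interleukin 1 receptor family instead use the adaptor Myd88 to release NF-kB from its cytoplasmic inhibitors, and NF-kB then drives chemokines, acute phase proteins and its own inhibitor Nfkbia. Ovarian tumor cells are known both to secrete such factors into ascites and to respond to them.

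NF-kB binds DNA at kappaB sites, and the promoters of the members were searched for them. RefSeq promoter windows on GRCm38.p6, from 250 bases before to 50 bases after the start of a gene, were held for 51 of the 72 genes in 65 windows. A kappaB-like motif, read as GGGA, any 2 bases and TTCC on either strand, was present in 6 of the 65 windows (9.23%) and in 482 of all 32851 windows (1.47%). The 6 genes were Cxcl1, Cxcl10, Ifngr2, Il22ra1, Nfkbia and Tlr3, of which Cxcl1, Ifngr2, Il22ra1 and Nfkbia rose in KMF and Cxcl10 and Tlr3 fell. Calls in those directions were made for 45.4% and 47.5% of all fitted genes. Nfkbia lost its call in 9 of the 15 alternatives, and Cxcl10 in 4 of the 12 in which it could be tested. A match is a description of the letters and does not show that the factor binds there. The windows of 2 genes that rose and of 2 that fell are shown 5′ to 3′ on the strand of each gene, with the kappaB-like match in capitals. They lie at chr5:90890995-90891294 (plus strand, Cxcl1), chr12:55492598-55492897 (minus strand, Nfkbia), chr5:92348840-92349139 (minus strand, Cxcl10) and chr8:45410331-45410630 (minus strand, Tlr3).
Cxcl1: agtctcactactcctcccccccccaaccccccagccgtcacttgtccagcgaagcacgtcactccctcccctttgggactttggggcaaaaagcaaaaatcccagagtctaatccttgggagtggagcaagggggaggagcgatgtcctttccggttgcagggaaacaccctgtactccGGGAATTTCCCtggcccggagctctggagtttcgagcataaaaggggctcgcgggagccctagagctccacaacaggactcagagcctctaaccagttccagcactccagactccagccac
Nfkbia: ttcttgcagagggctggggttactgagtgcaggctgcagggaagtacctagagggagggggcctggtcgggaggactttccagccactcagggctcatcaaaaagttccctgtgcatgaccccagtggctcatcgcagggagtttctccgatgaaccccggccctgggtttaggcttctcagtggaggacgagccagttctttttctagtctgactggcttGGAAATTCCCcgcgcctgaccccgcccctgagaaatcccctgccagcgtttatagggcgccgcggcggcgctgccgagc
Cxcl10: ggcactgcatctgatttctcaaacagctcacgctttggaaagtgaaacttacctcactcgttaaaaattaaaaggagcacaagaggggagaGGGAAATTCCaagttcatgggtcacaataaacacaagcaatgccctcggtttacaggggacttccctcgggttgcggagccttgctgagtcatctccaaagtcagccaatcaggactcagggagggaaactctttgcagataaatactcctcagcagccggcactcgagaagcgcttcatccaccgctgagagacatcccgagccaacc
Tlr3: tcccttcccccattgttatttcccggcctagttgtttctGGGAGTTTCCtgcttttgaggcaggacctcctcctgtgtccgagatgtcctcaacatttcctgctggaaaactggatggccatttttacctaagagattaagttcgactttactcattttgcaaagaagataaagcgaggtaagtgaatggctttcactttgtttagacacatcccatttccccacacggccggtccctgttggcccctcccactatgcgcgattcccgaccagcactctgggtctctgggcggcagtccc
The match in Cxcl1 begins at position -71 from the start of the gene, and a match on the other strand overlaps it at -70. In Nfkbia the match begins at -29, in Cxcl10 at -159 and in Tlr3 at -211. The STAT (GAS) motif TTCNNNGAA was present in 13.8% of the members' windows and 8.30% of all windows. The interferon response element, read as TTTC, any 2 bases and TTTC, was present in 6.15% and 3.44%, among them the windows of Cxcl10 and Socs1. The letters of the kappaB-like motif were not in the windows of Cxcl12, Cxcl15, Lcn2 or Tlr2.

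Of the 72 genes, 38 had the higher mean in KMF and 34 in ID8. A filter on low counts removed 6, among them Ccl5, Csf2rb, Il17re, Il1rapl1 and Il2rb, and because a low gene can pass through the line in which it is high, counts over the rest describe the fitted genes only. Among the 66 fitted members, 62 were called, against the 92.9% called over all fitted genes. Members called higher in KMF numbered 36, with 45.4% of all fitted genes called in that direction, and members called lower numbered 26, with 47.5%. The median log2 fold change was 0.39 over the fitted members and -0.23 over all fitted genes. The sign of the latter turned when low genes were left out, since with at least 10 counts in every library the medians were 0.44 and 0.20, and on the log2(FPKM + 1) scale they were 0.33 and 0.19. At least 2-fold changes were called upward in 18 members (18.0% of all fitted genes) and downward in 18 (22.5%). The libraries of the lines did not overlap for 61 of the 62 called members (Lifr was the exception), as for 99.1% of all called genes and 96.6% of all fitted genes. A mean over 1 FPKM was reached in both lines by 41 members, in ID8 alone by 8, in KMF alone by 6 and in neither by 17.

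**Figure D1:**
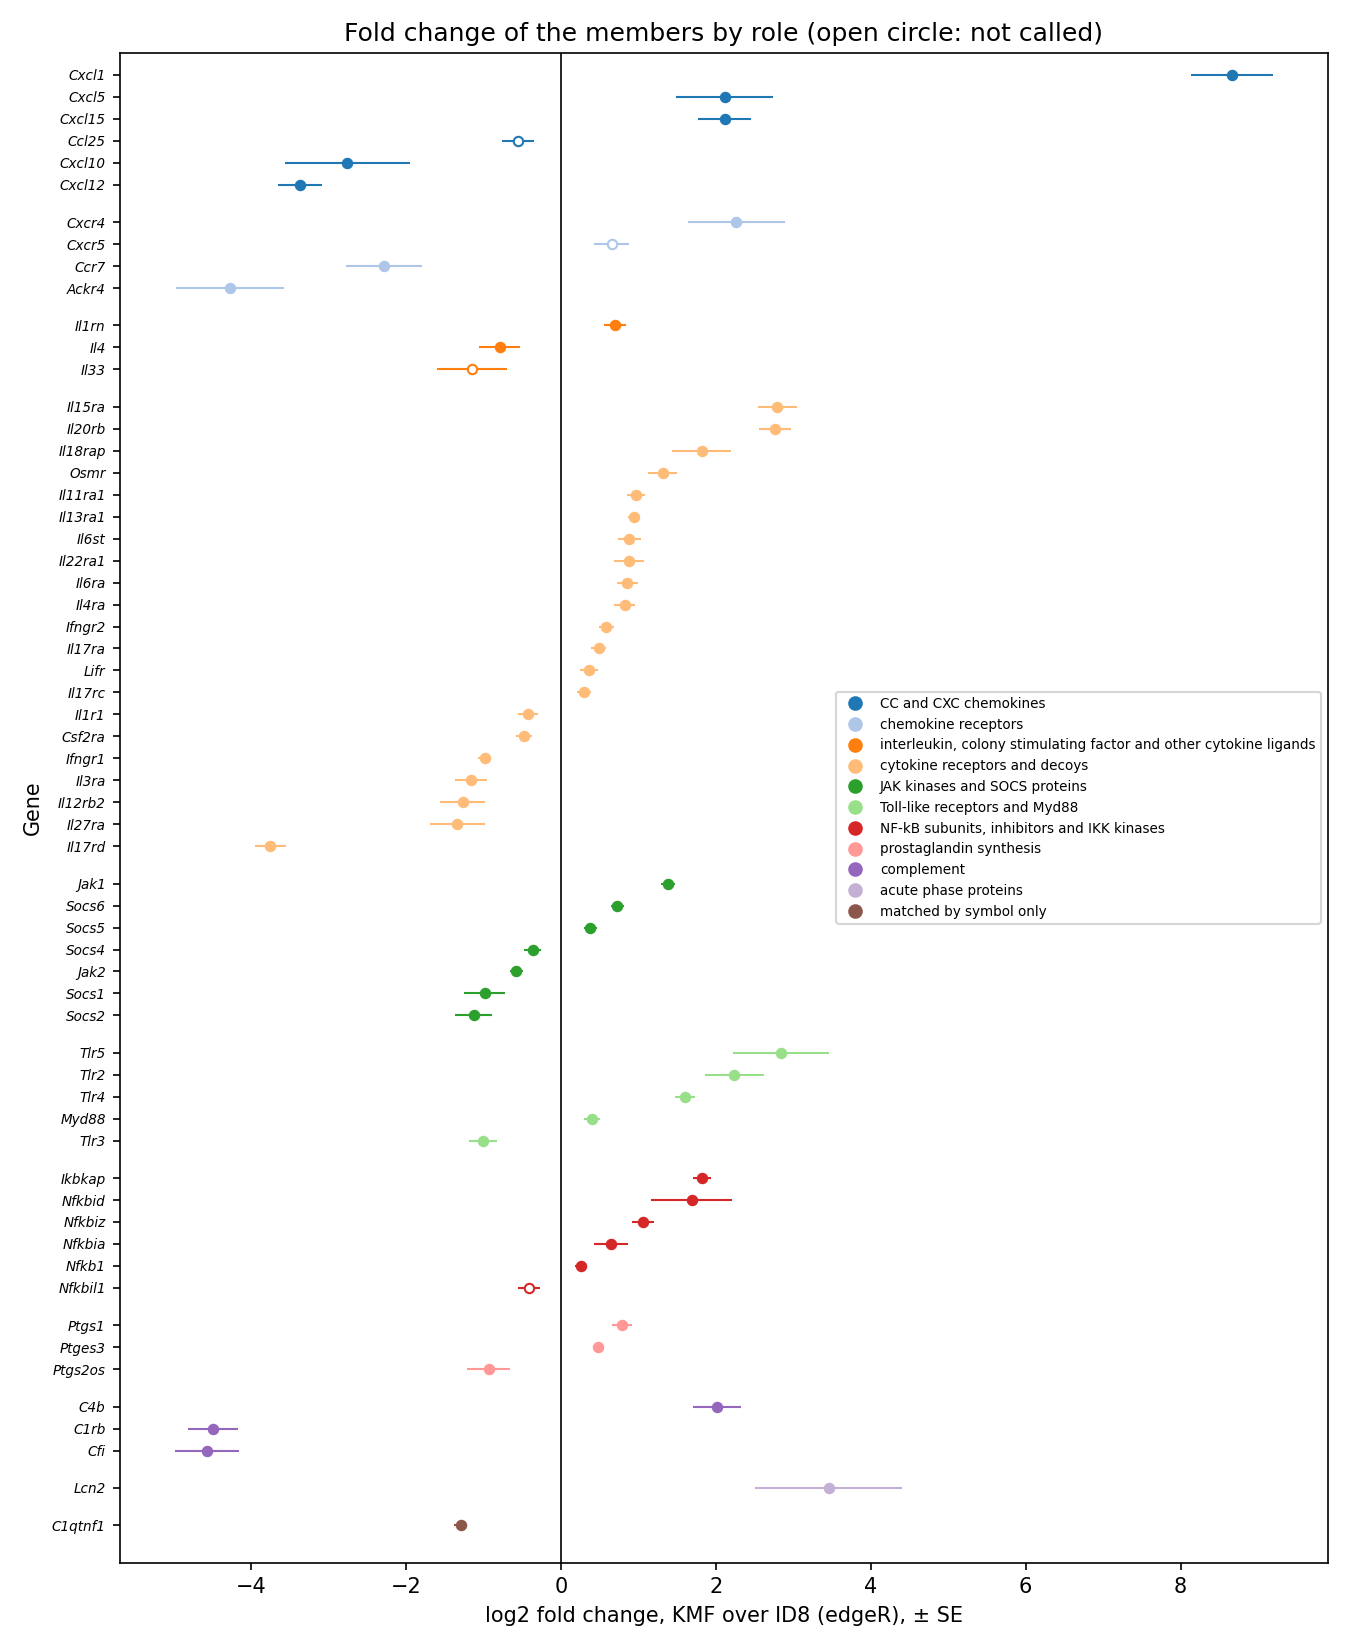
Log2 fold change of KMF over ID8 (x axis, edgeR, bars are ± SE) for 60 members, grouped by role and coloured by it, with filled circles for called genes and open circles for genes not called. Members that the filter removed or that had a line with 3 counts or fewer in every library are not drawn. Cxcl1 lies furthest to the right at 8.66, and Cfi and C1rb lie furthest to the left.

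Among the 7 listed chemokines, 3 CXC ligands rose in KMF and 2 fell, beside 45.4% and 47.5% of all fitted genes, and 1 to 3 were called lower when 1 library was left out. Cxcl1 (Gro-alpha), a ligand of Cxcr2 that attracts neutrophils, lies at chr5:90891241-90893115 on the plus strand (ENSMUSG00000029380). Its levels were 0.427, 0.304 and 0.654 FPKM in ID8 and 293, 142 and 117 FPKM in KMF, from 12, 7 and 16 fragments against 6595, 3133 and 3688. Every KMF library was more than 100-fold above every ID8 library, and the gene went from near the edge of detection in ID8 to the highest mean FPKM of all members in KMF. Cxcl1 rose by 8.66 ± 0.52 (adjusted p = 2.67e-05), which is 405-fold, with means of 0.462 ± 0.178 in ID8 and 184 ± 95.6 in KMF (SD, n = 3).

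Cxcl5, which acts on the same receptor, is encoded in the same cluster of chromosome 5 at chr5:90759299-90761625. It was present at 7.93, 3.98 and 2.896 FPKM in ID8 and 40.5, 14.3 and 7.99 FPKM in KMF. The libraries of the lines did not overlap, but only just, since the lowest KMF library lay beside the highest ID8 library. Cxcl5 rose by 2.12 ± 0.63 (adjusted p = 0.03004), and the call was lost without ID8 replicate 2 (1.99), ID8 replicate 3 (1.84) or KMF replicate 1 (1.22), with adjusted p of 0.07204 to 0.0887. Cxcl15 (lungkine), a further neutrophil attractant of that cluster, was present at 1.47, 1.34 and 0.5496 FPKM in ID8 and 5.48, 4.44 and 4.33 FPKM in KMF. It rose by 2.12 ± 0.34 (adjusted p = 0.00202), and each KMF library was above each ID8 library.

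Cxcl12 (SDF-1), the ligand of Cxcr4 and a product of stromal and mesothelial cells, had the highest FPKM of the listed chemokines in ID8 tumorspheres. It is encoded at chr6:117168535-117181367 on the plus strand. Its levels were 47.1, 47.1 and 85.6 FPKM in ID8 and 4.16, 6.58 and 6.23 FPKM in KMF. All ID8 libraries were above all KMF libraries, and the ID8 replicate of passage 35 was the highest. Cxcl12 fell by 3.36 ± 0.28 (adjusted p = 9.01e-05), which is 10.3-fold, with means of 59.9 ± 22.3 in ID8 and 5.66 ± 1.31 in KMF (SD, n = 3). The 4 listed fibroblast markers given above also fell. Of the 11 listed ovarian surface epithelium and mesothelium markers, 8 fell and Msln rose. A link between these differences and that of Cxcl12 was not tested.

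The remaining chemokines were scarce or not called. Cxcl10 (IP-10), an interferon-induced ligand of Cxcr3, had 14, 30 and 12 counts in ID8 and 5, 0 and 3 counts in KMF. It fell by 2.75 ± 0.80 (adjusted p = 0.0284), and the call was lost without ID8 replicate 2 (-2.13), KMF replicate 2 (-2.23) or KMF replicate 3 (-2.64), with adjusted p of 0.0713 to 0.106. With the replicate block the call was lost too (-2.63, adjusted p = 0.0702). Without KMF replicate 1 the change of Cxcl10 was -3.63. Ccl5 (RANTES), which the filter removed, had 18, 40 and 9 counts in ID8 and 4, 1 and 4 counts in KMF, and so was also higher in all ID8 libraries. Ccl25, known from the thymus and gut, was at 9.24, 6.87 and 7.59 FPKM in ID8 and 3.98, 6.09 and 5.67 FPKM in KMF, and its log2 fold change of -0.55 ± 0.21 was not called (adjusted p = 0.0791), except in 4 of the 15 alternatives, DESeq2 and upper quartile scaling among them. Exons of Cxcl10 and Ccl25 overlap genes on the opposite strand by 5.91% and 2.74% of their length, and whether the counts used strand is not given in the sources used here.

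**Figure D2:**
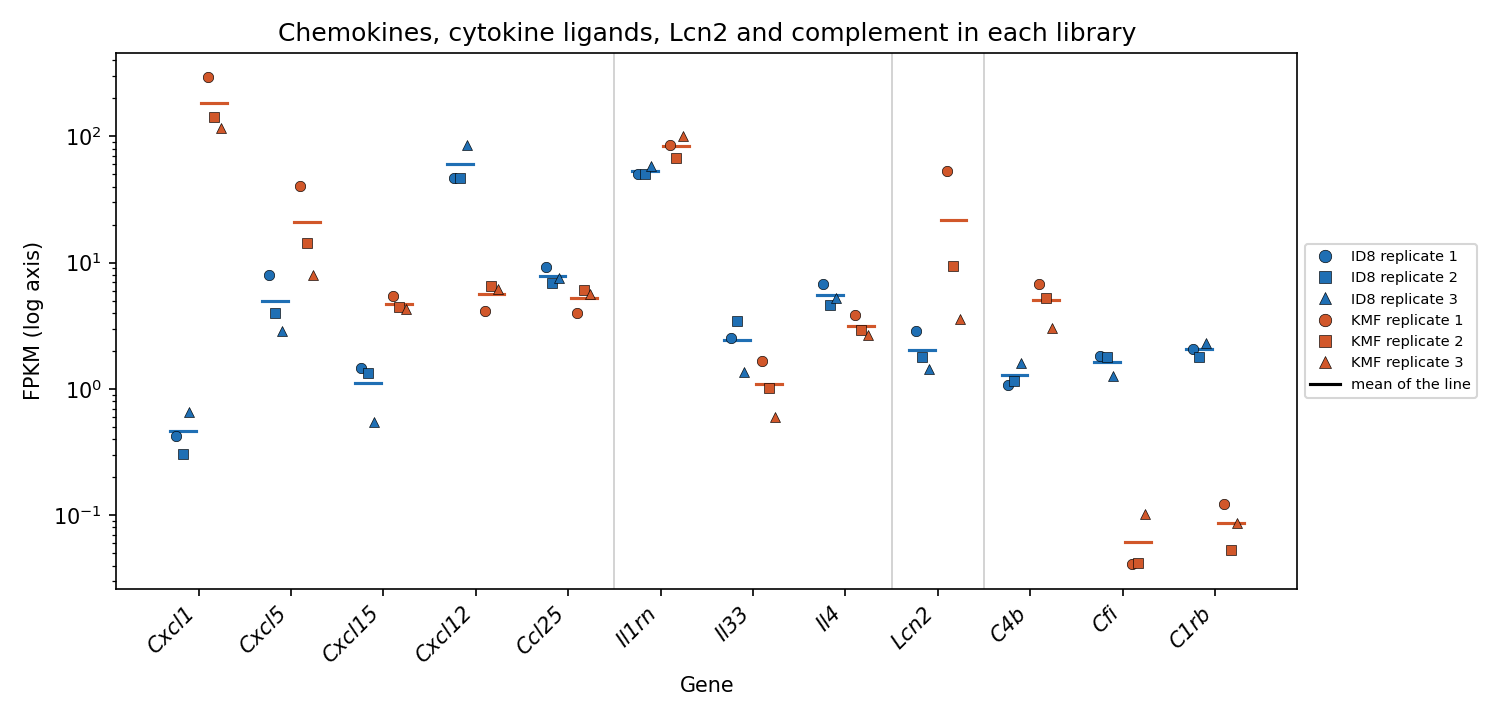
FPKM in each library (y axis, log scale) of chemokines, cytokine ligands, Lcn2 and complement genes, with ID8 in blue and KMF in orange, a symbol for each replicate and a bar at the mean of each line. Cxcl1 stands under 1 FPKM in all ID8 libraries and over 100 FPKM in all KMF libraries, Cxcl12 shows the opposite order, and Lcn2 is spread widely among the KMF libraries.

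The chemokine receptors were expressed at low levels in both lines, and their 5 listed genes summed to between 1.83 and 3.68 FPKM in ID8 and between 1.84 and 1.99 FPKM in KMF. Cxcr4, the receptor of Cxcl12, had 1, 2 and 7 counts in ID8 and 11, 13 and 26 counts in KMF. It rose by 2.27 ± 0.63 (adjusted p = 0.0232), opposite in direction to its ligand. That call was lost without ID8 replicate 1 (1.77), ID8 replicate 2 (2.07), KMF replicate 2 (2.33) or KMF replicate 3 (2.04), with adjusted p of 0.0579 to 0.09495, and the change was 3.37 without ID8 replicate 3. Ccr7, which guides lymphocytes and dendritic cells to lymph nodes, was at 2.01, 2.41 and 0.6895 FPKM in ID8 and 0.3001, 0.35 and 0.365 FPKM in KMF and fell by 2.28 ± 0.49 (adjusted p = 0.00725). Ackr4, a scavenger that binds Ccl19, Ccl21 and Ccl25 without signalling through G proteins, had 43, 41 and 19 counts in ID8 and 1, 0 and 4 counts in KMF. It fell by 4.27 ± 0.69 (adjusted p = 0.001998), and its change was -5.57 without KMF replicate 3. Exons of Ackr4 overlap Acad11 on the opposite strand over 8.90% of their length.

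Cxcr5, a chemokine receptor of B cells, was at 0.733, 0.557 and 0.704 FPKM in ID8 and 1.05, 0.996 and 1.01 FPKM in KMF, and its difference of 0.66 ± 0.22 (log2) was not called (adjusted p = 0.05398), except in 2 of the 15 alternatives.

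Only 4 cytokine ligands were listed, and the most abundant of them was an antagonist. Il1rn, the interleukin 1 receptor antagonist, was at 50.4, 50.8 and 58.4 FPKM in ID8 and 84.9, 66.98 and 100.1 FPKM in KMF. It rose by 0.70 ± 0.14 (adjusted p = 0.00522), with all KMF libraries above all ID8 libraries. Il4, a type 2 cytokine made mainly by lymphocytes, was at 6.84, 4.66 and 5.28 FPKM in ID8 and 3.85, 2.93 and 2.69 FPKM in KMF and fell by 0.79 ± 0.26 (adjusted p = 0.0481). That call was lost without any of the replicates but KMF replicate 1, at changes of -0.62, -0.90 and -0.84 without ID8 replicates 1 to 3 and -0.72 and -0.65 without KMF replicates 2 and 3 (adjusted p of 0.0564 to 0.213). It was also lost with no filter on low counts, with the authors' size factors and with the replicate block (-0.78, adjusted p = 0.0629).

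Il33, a nuclear alarmin of the interleukin 1 family, was at 2.55, 3.47 and 1.36 FPKM in ID8 and 1.65, 1.02 and 0.604 FPKM in KMF, and the lines overlapped. Its log2 fold change of -1.15 ± 0.45 was not called (adjusted p = 0.09002), but was called by DESeq2 and without ID8 replicate 3 (-1.44) or KMF replicate 1 (-1.56), with adjusted p of 0.0288 to 0.0363. Il33 was called with the replicate block too (-1.14, adjusted p = 0.0267). Il17d, a member of the interleukin 17 family, had 17, 14 and 17 counts in ID8 and 2, 1 and 0 counts in KMF, a CPM (counts scaled to library depth) ratio of 16.1 (exact 95% counting interval 5.197 to 80.9) in favour of ID8. Its fitted log2 change was -3.80, and -4.71 without KMF replicate 1 and -3.08 without KMF replicate 3. Counting intervals cover counting error only.

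The cytokine receptors formed the largest group, with 27 listed genes of which 15 rose and 8 fell among the 23 that could be fitted (median log2 fold change 0.58), beside 45.4% and 47.5% of all fitted genes. In summed level they went from 249.8 to 259.4 FPKM in ID8 to 300.4 to 323.0 FPKM in KMF. The count of receptors called lower was 5 without ID8 replicate 1 and lay between 6 and 10 without each of the others.

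Of 6 listed receptor chains that bind or pair for ligands of the interleukin 6 family, 5 were called higher in KMF (45.4% of all fitted genes) and Il27ra was called lower. Il6st (gp130), the signalling chain shared by most of the family, was at 19.97, 17.6 and 15.6 FPKM in ID8 and 38.2, 31.04 and 26.4 FPKM in KMF. It rose by 0.89 ± 0.15 (adjusted p = 0.00269), and each KMF library was above each ID8 library. Osmr, which pairs with Il6st to bind oncostatin M, was at 6.37, 9.19 and 6.004 FPKM in ID8 and 20.7, 15.7 and 15.8 FPKM in KMF and rose by 1.31 ± 0.19 (adjusted p = 0.00121), again without overlap. Il6ra, the interleukin 6 binding chain, was at 5.77, 4.32 and 4.93 FPKM in ID8 and 9.59, 8.28 and 8.67 FPKM in KMF and rose by 0.86 ± 0.13 (adjusted p = 0.00149). Il11ra1, the interleukin 11 binding chain, went from 11, 10.02 and 13.3 FPKM to 23.02, 22.2 and 20.4 FPKM and rose by 0.97 ± 0.12 (adjusted p = 0.0004504), although its reads can be shared with the near-identical copy Il11ra2. Lifr, the receptor of leukemia inhibitory factor, was at 14.2, 11.2 and 11.03 FPKM in ID8 and 16.1, 13.6 and 16.1 FPKM in KMF, and here the lines overlapped. It rose by 0.36 ± 0.12 (adjusted p = 0.0427), a call that was lost without ID8 replicate 2 (0.32), ID8 replicate 3 (0.29), KMF replicate 1 (0.34) or KMF replicate 3 (0.35), with adjusted p of 0.0977 to 0.133. In all, Lifr lost its call in 9 of the 15 alternatives, upper quartile scaling included. Il27ra, which also pairs with Il6st, went the other way, with 46, 25 and 24 counts in ID8 and 13, 9 and 14 counts in KMF. It fell by 1.34 ± 0.36 (adjusted p = 0.0194), and the call was lost without ID8 replicate 1 (-1.08), KMF replicate 2 (-1.22) or KMF replicate 3 (-1.25), with adjusted p of 0.0827 to 0.0978.

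Receptor chains for interleukins 4 and 13 rose as well. Il13ra1, which joins Il4ra to form the receptor used outside blood cells, was at 18.6, 19.2 and 17.7 FPKM in ID8 and 32.6, 35.6 and 35.8 FPKM in KMF. It rose by 0.95 ± 0.07 (adjusted p = 6.96e-05), with little spread within either line. Il4ra was at 9.51, 11.6 and 11.5 FPKM in ID8 and 22.04, 18.1 and 16.1 FPKM in KMF and rose by 0.82 ± 0.14 (adjusted p = 0.00242), although 9.51% of its exons overlap an antisense gene. Among receptors with epithelial roles, Il15ra, which presents interleukin 15 to neighbouring cells, went from 0.806, 0.626 and 0.791 FPKM in ID8 to 3.57, 6.09 and 5.41 FPKM in KMF. Il15ra rose by 2.80 ± 0.25 (adjusted p = 0.000117), or 6.94-fold, and KMF replicate 1 was the lowest of its line. Il20rb, a chain of the receptors for interleukins 19, 20 and 24, went from 0.704, 0.564 and 0.5302 FPKM to 3.401, 4.54 and 4.03 FPKM and rose by 2.77 ± 0.21 (adjusted p = 5.50e-05). Il22ra1, the interleukin 22 receptor of epithelial cells and a partner of Il20rb, was at 8.08, 11.3 and 7.54 FPKM in ID8 and 19.6, 13.9 and 14.7 FPKM in KMF and rose by 0.88 ± 0.20 (adjusted p = 0.00942). These 3 genes showed no overlap between the lines, as did 96.6% of all fitted genes.

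The 2 chains of the interferon gamma receptor moved in opposite directions. Ifngr1, the ligand-binding chain, was at 30.5, 28.5 and 32.7 FPKM in ID8 and 15.7, 15.1 and 14.4 FPKM in KMF, and every KMF library lay below every ID8 library. It fell by 0.98 ± 0.08 (adjusted p = 9.63e-05). Ifngr2, the chain needed for signalling, was at 28.05, 30.02 and 31.7 FPKM in ID8 and 37.99, 46.7 and 46.3 FPKM in KMF and rose by 0.58 ± 0.10 (adjusted p = 0.00222). In ID8 both chains stood near 30 FPKM in all libraries, and in KMF the chains were apart in all libraries.

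The listed chains of the GM-CSF and interleukin 3 receptors were Csf2ra and Il3ra, which fell in KMF, and Csf2rb, which was not tested. Csf2ra, the binding chain for GM-CSF, was at 30.5, 25.6 and 30.4 FPKM in ID8 and 19.1, 22.4 and 18.97 FPKM in KMF and fell by 0.48 ± 0.11 (adjusted p = 0.00879). Il3ra, the interleukin 3 binding chain, was at 20.6, 19.5 and 23.5 FPKM in ID8 and 11.95, 9.13 and 6.696 FPKM in KMF and fell by 1.16 ± 0.21 (adjusted p = 0.00331). All ID8 libraries were above all KMF libraries for both genes. Csf2rb, the signalling chain that both need, was barely detected with 3, 15 and 5 counts in ID8 and 0, 0 and 2 counts in KMF, was removed by the filter, and can share reads with its copy Csf2rb2. The ratio of its CPM was 11.6 (exact 95% counting interval 2.86 to 101) in favour of ID8.

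**Figure D3:**
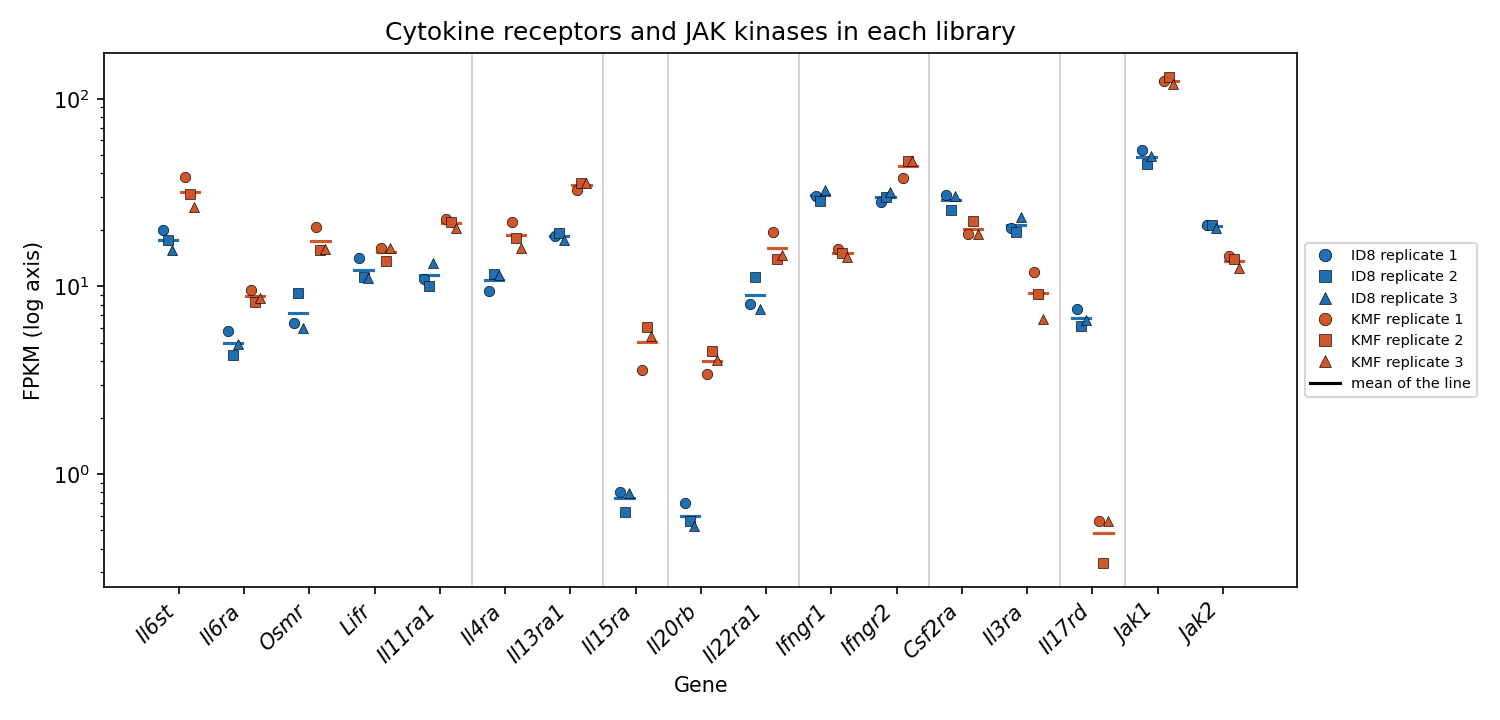
FPKM in each library (y axis, log scale) of cytokine receptors and of the JAK kinases, with ID8 in blue and KMF in orange, a symbol for each replicate and a bar at the mean of each line. The interleukin 6, 4, 13, 15, 20 and 22 receptor chains lie higher in KMF, Ifngr1, Csf2ra, Il3ra and Il17rd lie higher in ID8, and Jak1 and Jak2 part in opposite directions.

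The interleukin 1 receptor family differed gene by gene along a cluster of chromosome 1. Il1rl2, the receptor of interleukin 36, lies at chr1:40324627-40365471 and had 226, 183 and 95 fragments in ID8 and 0 in each KMF library. At 3 counts per library, a count of 0 allows a level of up to 0.0666 FPKM. With the counts of each line pooled and 3 taken for each KMF library, KMF was at least 56.4-fold lower (adjusted p = 0.000333). The neighbouring Il18r1, the binding chain of the interleukin 18 receptor at chr1:40465552-40500854, had 0, 0 and 1 fragments in ID8 and 20, 24 and 50 in KMF, a ratio of 93.3 (exact 95% counting interval 16.3 to 3723). Its fitted log2 change was 6.08, and 7.95 without ID8 replicate 3, which held the 1 ID8 fragment, and neither is a bound. Il18rap, the partner chain of Il18r1, was at 0.541, 0.9998 and 0.335 FPKM in ID8 and 1.95, 2.63 and 1.87 FPKM in KMF and rose by 1.82 ± 0.38 (adjusted p = 0.006501). Il1r1, the interleukin 1 receptor itself, was at 7.77, 7.77 and 6.65 FPKM in ID8 and 6.15, 4.79 and 5.21 FPKM in KMF and fell by 0.42 ± 0.13 (adjusted p = 0.0337). That smaller change was not called without ID8 replicate 1 (-0.39), ID8 replicate 2 (-0.37), KMF replicate 2 (-0.32) or KMF replicate 3 (-0.37), with adjusted p of 0.102 to 0.138. A distant member of the family, Il1rapl1, known from neurons, had 13, 2 and 19 counts in ID8 and 1, 2 and 1 counts in KMF and was removed by the filter.

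In the interleukin 17 receptor family the largest change was in a gene that does not act on interleukin 17 in the usual way. Il17rd (Sef), known as an inhibitor of fibroblast growth factor signalling, was at 7.56, 6.14 and 6.62 FPKM in ID8 and 0.562, 0.337 and 0.5604 FPKM in KMF. It fell by 3.75 ± 0.20 (adjusted p = 1.59e-05), or 13.5-fold, and the lines were far apart. Il17ra, the chain shared by the interleukin 17 receptors, was at 8.58, 8.702 and 9.18 FPKM in ID8 and 12.5, 10.7 and 12.95 FPKM in KMF and rose by 0.49 ± 0.09 (adjusted p = 0.00456). Il17rc, its partner for interleukin 17A, was at 24.2, 21.1 and 22.6 FPKM in ID8 and 27.5, 24.5 and 29.1 FPKM in KMF. It rose by 0.30 ± 0.09 (adjusted p = 0.0327), and was not called without ID8 replicate 2 (0.26), ID8 replicate 3 (0.29), KMF replicate 1 (0.29) or KMF replicate 3 (0.27), with adjusted p of 0.0728 to 0.107. In all, Il17rc lost its call in 10 of the 15 alternatives, including DESeq2 and upper quartile scaling (0.18, adjusted p = 0.204). Il17re, the interleukin 17C receptor chain, had 24, 46 and 10 counts in ID8 and 1, 6 and 5 counts in KMF and was removed by the filter.

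A further 2 receptor chains best known from lymphocytes, Il2rb and Il12rb2, were lower in KMF, unlike the interleukin 18 receptor chains above. Il2rb, a chain for interleukins 2 and 15 that the filter removed, had 21, 11 and 5 counts in ID8 and 1, 0 and 1 counts in KMF, a ratio of 18.6 (exact 95% counting interval 4.81 to 159.7) in favour of ID8. Il12rb2, a chain of the interleukin 12 receptor, had 79, 42 and 66 counts in ID8 and 23, 25 and 26 counts in KMF and fell by 1.27 ± 0.29 (adjusted p = 0.0108). Without ID8 replicate 1 (-1.16) or KMF replicate 3 (-1.11) it was not called (adjusted p of 0.0522 to 0.0538). A share of 40.0% of its exons overlaps Serbp1 on the opposite strand.

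Downstream of the receptors, the JAK kinases moved in opposite directions and the SOCS inhibitors were mixed. Jak1, which serves the interleukin 6, interferon and most other cytokine receptors, was at 53.6, 44.7 and 49.4 FPKM in ID8 and 125, 130.3 and 119.5 FPKM in KMF and lies at chr4:101152367-101265282. It rose by 1.38 ± 0.09 (adjusted p = 2.97e-05), or 2.61-fold, and was the most abundant of these kinases in both lines. Jak2, which serves Ifngr2 and the Csf2rb family, was at 21.3, 21.2 and 20.4 FPKM in ID8 and 14.5, 14.01 and 12.5 FPKM in KMF and fell by 0.58 ± 0.08 (adjusted p = 0.00114). Neither kinase showed overlap between the lines.

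The SOCS genes, whose products bind activated receptors or JAK kinases and limit signalling, split by member. Socs5 was at 22.97, 23.1 and 20.5 FPKM in ID8 and 29.8, 26.5 and 28.1 FPKM in KMF and rose by 0.38 ± 0.08 (adjusted p = 0.00891). Socs6 was at 6.23, 6.43 and 5.85 FPKM in ID8 and 9.72, 10.5 and 9.59 FPKM in KMF and rose by 0.73 ± 0.08 (adjusted p = 0.000394). Socs2, a feedback inhibitor of growth hormone signalling, went from 1.14, 1.08 and 1.08 FPKM to 0.5198, 0.592 and 0.369 FPKM and fell by 1.12 ± 0.24 (adjusted p = 0.00741). The libraries of the lines did not overlap for these 3 genes, as for 96.6% of all fitted genes. Socs1, the feedback inhibitor of interferon signalling, was at 1.39, 1.73 and 1.66 FPKM in ID8 and 0.799, 0.674 and 0.864 FPKM in KMF and fell by 0.98 ± 0.26 (adjusted p = 0.0203). It was not called without ID8 replicate 2 (-0.91) or without KMF replicate 1 (-0.99), 2 (-0.87) or 3 (-1.04), with adjusted p of 0.0582 to 0.0927. Nor was Socs1 called with the replicate block (-0.99, adjusted p = 0.0640). Socs4 was at 7.74, 8.58 and 9.28 FPKM in ID8 and 5.66, 6.54 and 7.17 FPKM in KMF and fell by 0.36 ± 0.11 (adjusted p = 0.0312). That call too was lost without ID8 replicate 2 (-0.35) or 3 (-0.30) or KMF replicate 1 (-0.26) or 2 (-0.35), with adjusted p of 0.0814 to 0.124. Of the 7 JAK and SOCS genes, 4 were called lower, beside 47.5% of all fitted genes. Without ID8 replicate 2, KMF replicate 1 or KMF replicate 2, 2 of these calls were left.

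Of the Toll-like receptors, 5 were listed, of which Tlr2, Tlr4 and Tlr5, which act at the cell surface, rose in KMF, and Tlr3 and Tlr7, which sense RNA in endosomes, fell. Of all fitted genes, 45.4% were called higher and 47.5% lower. The other Toll-like receptors were not analysed here, and no test of a split by location was made. Tlr4, the receptor of lipopolysaccharide at chr4:66827584-66930284, was at 7.23, 9.46 and 8.96 FPKM in ID8 and 27.9, 24.9 and 22.9 FPKM in KMF. It rose by 1.60 ± 0.13 (adjusted p = 7.52e-05), with all KMF libraries above all ID8 libraries. Tlr2, which senses bacterial lipoproteins, went from 0.754, 0.962 and 0.504 FPKM to 5.09, 3.02 and 2.14 FPKM and rose by 2.24 ± 0.38 (adjusted p = 0.00258). Tlr5, the flagellin receptor, had 10, 7 and 3 counts in ID8 and 72, 18 and 51 counts in KMF and rose by 2.85 ± 0.62 (adjusted p = 0.00796), or by 2.26 without KMF replicate 1. Tlr3, which senses double-stranded RNA, was at 1.94, 2.56 and 2.13 FPKM in ID8 and 1.02, 1.22 and 0.981 FPKM in KMF and fell by 1.00 ± 0.19 (adjusted p = 0.00376), while 7.32% of its exons overlap an antisense gene. Tlr7, a sensor of single-stranded RNA, had 72, 53 and 42 counts in ID8 and 1, 1 and 3 counts in KMF, a ratio of 33.7 (exact 95% counting interval 14.1 to 105) in favour of ID8.

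Myd88, the adaptor of all Toll-like receptors but Tlr3, was at 8.1, 7.398 and 8.18 FPKM in ID8 and 10.7, 10.1 and 9.71 FPKM in KMF and rose by 0.41 ± 0.10 (adjusted p = 0.0147). Without ID8 replicate 2 its change was 0.37 and was not called (adjusted p = 0.0501), nor was it called under upper quartile scaling, and 11.3% of its exons overlap Acaa1a on the opposite strand. No overlap between the lines was seen for any of the 6 genes, as for 96.6% of all fitted genes.

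Of the 6 genes grouped under NF-kB, 5 rose (45.4% of all fitted genes) and Nfkbil1 was not called. Over the 15 alternatives from 2 to 5 of them were called higher. Nfkbiz (IkB-zeta), a nuclear co-activator of selected NF-kB targets, was at 5.498, 5.17 and 5.398 FPKM in ID8 and 13.1, 10.6 and 9.05 FPKM in KMF. It rose by 1.06 ± 0.14 (adjusted p = 0.00080), with the libraries of the lines apart. Nfkbia (IkB-alpha), the main cytoplasmic inhibitor and itself a target of NF-kB, was at 33.1, 31.5 and 29.2 FPKM in ID8 and 66.4, 41.2 and 35.8 FPKM in KMF. KMF replicate 1 was far above the other KMF libraries, which lay closer to ID8 than to it. Nfkbia rose by 0.65 ± 0.22, at an adjusted p of 0.04996 that is barely under the threshold. It was not called without ID8 replicates 1 (0.69), 2 (0.67) or 3 (0.60) or KMF replicate 2 (0.77), with adjusted p of 0.0519 to 0.128, and in all it lost its call in 9 of the 15 alternatives.

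Nfkb1, the p50 subunit itself, was at 24.03, 21.8 and 23.01 FPKM in ID8 and 27.6, 26.4 and 26.1 FPKM in KMF. Its rise of 0.26 ± 0.07 (adjusted p = 0.020) was small, and was 0.23 and not called without ID8 replicate 2 (adjusted p = 0.0733). Nor was Nfkb1 called under upper quartile scaling (0.15, adjusted p = 0.182) or in either limma fit on FPKM. Nfkbid (IkB-NS), a nuclear regulator, had 15, 2 and 11 counts in ID8 and 19, 28 and 42 counts in KMF and rose by 1.69 ± 0.52 (adjusted p = 0.03597). It was called in the full set and without KMF replicate 1, but not without ID8 replicates 1 (2.10), 2 (1.26) or 3 (1.85) or KMF replicates 2 (1.64) or 3 (1.59), with adjusted p of 0.0518 to 0.116. Upper quartile scaling and the replicate block (1.74, adjusted p = 0.0732) also ended the call of Nfkbid. Nfkbil1, an IkB-like gene of the major histocompatibility region, was at 6.96, 7.36 and 6.89 FPKM in ID8 and 4.66, 5.47 and 5.43 FPKM in KMF, and its difference of -0.41 ± 0.14 (log2) was not called (adjusted p = 0.0564), but it was called lower in 6 of the 15 alternatives, DESeq2 and upper quartile scaling among them (adjusted p of 0.0138 to 0.177 over all 15). The steepest rise belonged to Ikbkap, which carries an IKK name but encodes a subunit of Elongator, a complex that modifies transfer RNA. It was at 11.4, 8.72 and 11.2 FPKM in ID8 and 39.7, 33.9 and 34.2 FPKM in KMF and rose by 1.82 ± 0.12 (adjusted p = 3.57e-05). The number of these genes called higher was 2 without ID8 replicate 2 and 3 without ID8 replicate 1, ID8 replicate 3 or KMF replicate 2.

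**Figure D4:**
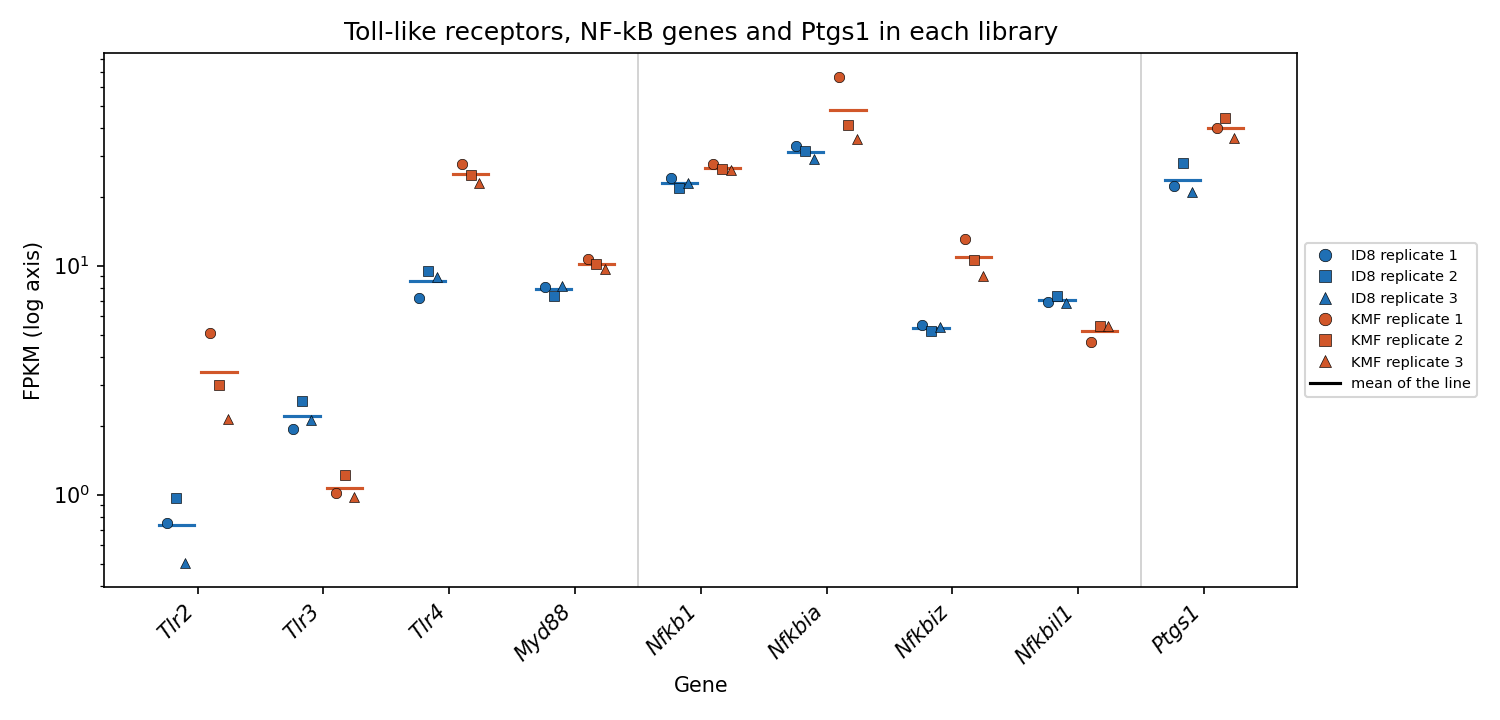
FPKM in each library (y axis, log scale) of Toll-like receptors, Myd88, NF-kB genes and Ptgs1, with ID8 in blue and KMF in orange, a symbol for each replicate and a bar at the mean of each line. Tlr2, Tlr4 and Nfkbiz lie clearly higher in KMF and Tlr3 lies lower, while Nfkb1 differs by little and Nfkbia is raised mostly in KMF replicate 1.

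Other genes of these pathways, from a list of 48 NF-kB, Toll and TNF signalling genes that the symbol pattern does not take, were in the table for 14, of which 12 rose and 1 fell (median log2 fold change 0.67), beside 45.4% and 47.5% of all fitted genes. Among the 12, Rbck1 lost its call in 12 of the 15 alternatives and Irak4 in 9, upper quartile scaling included for both. Traf1, a TNF receptor adaptor induced by NF-kB, went from 0.279, 0.644 and 0.183 FPKM to 2.18, 0.787 and 1.202 FPKM. It rose by 1.96 ± 0.54 (adjusted p = 0.0229), and was not called without ID8 replicate 1 (1.78), ID8 replicate 3 (1.63) or KMF replicate 1 (1.49), with adjusted p of 0.0553 to 0.08996, while its change was 2.62 without ID8 replicate 2. Irak3, an inhibitor of Toll-like receptor signalling, was at 0.602, 1.04 and 0.717 FPKM in ID8 and 2.72, 2.42 and 1.84 FPKM in KMF and rose by 1.60 ± 0.28 (adjusted p = 0.00267). Map3k8 (Tpl2), a kinase released by Toll-like receptor signals, was at 0.663, 0.611 and 0.326 FPKM in ID8 and 2.08, 1.31 and 1.12 FPKM in KMF and rose by 1.52 ± 0.37 (adjusted p = 0.0132). Bcl3, a nuclear partner of p50, rose by 1.21 ± 0.10 (adjusted p = 8.63e-05), and Tnfaip3 (A20), a feedback inhibitor of NF-kB, rose by 0.88 ± 0.23 (adjusted p = 0.01895). Without ID8 replicate 1 (0.91) or 3 (0.79) Tnfaip3 was not called (adjusted p of 0.0533 to 0.0554). Tnip1, which works with Tnfaip3, was the gene that fell, with a change of -0.60 ± 0.19 (adjusted p = 0.0442), and it was not called without ID8 replicate 1 (-0.54) or 2 (-0.52) or KMF replicate 2 (-0.45) or 3 (-0.49), with adjusted p of 0.128 to 0.165, nor with the authors' size factors. Ly96 (MD-2), the partner of Tlr4, had a log2 fold change of 0.52 ± 0.21 that was not called (adjusted p = 0.0947), but was called without KMF replicate 1 (0.69, adjusted p = 0.0338).

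Of 24 STAT and JAK-STAT regulator genes, 9 were listed, of which 6 rose and 2 fell (median log2 fold change 0.36), beside 45.4% and 47.5% of all fitted genes. Among the 6, Stam lost its call in 10 of the 15 alternatives, DESeq2 included, and Stat6 in 2, under upper quartile scaling and without ID8 replicate 2. Pias3, an inhibitor of Stat3, was at 8.95, 8.65 and 9.96 FPKM in ID8 and 20.4, 25.9 and 24.6 FPKM in KMF and rose by 1.40 ± 0.11 (adjusted p = 6.38e-05). Stat3 itself, the transcription factor used by Il6st, was at 56.9, 54.7 and 68.3 FPKM in ID8 and 45.3, 42.1 and 41.04 FPKM in KMF and fell by 0.45 ± 0.10 (adjusted p = 0.00779). Ctf1 (cardiotrophin 1), a ligand of Lifr and Il6st, was at 9.48, 10.8 and 9.503 FPKM in ID8 and 5.49, 5.08 and 4.34 FPKM in KMF and fell by 0.96 ± 0.16 (adjusted p = 0.00199). Ptpn11 (Shp2), a phosphatase recruited to Il6st, had a log2 fold change of 0.21 ± 0.07 that was not called (adjusted p = 0.0661) except without KMF replicate 3 (0.27, adjusted p = 0.0438).

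Lcn2 (lipocalin 2), an iron-siderophore binding acute phase protein and known target of NF-kB and IkB-zeta, lies at chr2:32384633-32387797 and was at 2.89, 1.78 and 1.45 FPKM in ID8 and 52.7, 9.35 and 3.59 FPKM in KMF. The KMF libraries differed among themselves by 14.7-fold, yet the lowest of them was above the highest ID8 library. Lcn2 rose by 3.46 ± 0.95 (adjusted p = 0.0224), and by 1.71 without KMF replicate 1, where it was still called. Without ID8 replicates 1 (3.80), 2 (3.37) or 3 (3.25) the call was lost, with adjusted p of 0.0566 to 0.0688. It was also lost in limma on log2(FPKM + 1), with a change of 2.20 (adjusted p = 0.0708), and on log2(FPKM + 0.1), with 2.58 (adjusted p = 0.0547). With the replicate block the change of Lcn2 was 2.79, and it was called (adjusted p = 0.00988).

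Prostaglandin synthesis was represented by 3 symbols. Ptgs1 (COX-1), the constitutive cyclooxygenase, was at 22.3, 27.96 and 20.9 FPKM in ID8 and 39.8, 43.9 and 36.2 FPKM in KMF and rose by 0.79 ± 0.13 (adjusted p = 0.00245), with the lines apart. Ptges3 (p23), a prostaglandin E synthase better known as a co-chaperone of Hsp90, was at 72.1, 74.96 and 71.7 FPKM in ID8 and 100.1, 96.5 and 99.8 FPKM in KMF and rose by 0.48 ± 0.07 (adjusted p = 0.000864). Ptgs2os, an RNA from the strand opposite Ptgs2, had 79, 66 and 54 counts in ID8 and 33, 33 and 34 counts in KMF and fell by 0.93 ± 0.27 (adjusted p = 0.0287). It was not called without ID8 replicates 1 (-0.89) or 2 (-0.86) or without KMF replicates 1 (-0.99), 2 (-0.99) or 3 (-0.76), with adjusted p of 0.0563 to 0.1104. The replicate block also ended this call (-0.93, adjusted p = 0.0516). Among 20 prostaglandin receptor and handling genes, 13 were listed, of which 6 rose and 7 fell, beside 45.4% and 47.5% of all fitted genes. Akr1b3, one of those that rose, lost its call in 8 of the 15 alternatives. Among those that fell, Abcc4 lost its call in 5 and Ptgfr in 3. The change of Ptgfr was -1.92, and -2.68 without KMF replicate 1. Cbr1, a carbonyl reductase that converts prostaglandin E2, went from 30.4, 31.6 and 31.7 FPKM to 0.206, 0.385 and 0.511 FPKM and fell by 6.31 ± 0.23 (adjusted p = 4.87e-06). Ptgds, prostaglandin D synthase, went from 0.741, 0.874 and 1.17 FPKM to 2.52, 11.5 and 7.12 FPKM and rose by 2.96 ± 0.54 (adjusted p = 0.00334). Slco2a1, the prostaglandin transporter, was at 0.924, 0.808 and 0.8098 FPKM in ID8 and 4.45, 5.82 and 4.502 FPKM in KMF and rose by 2.58 ± 0.15 (adjusted p = 2.31e-05).

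Of the 4 listed complement genes, 3 fell in KMF (47.5% of all fitted genes) and C4b rose. Cfi (factor I), a soluble protease that inactivates complement, went from 1.83, 1.798 and 1.26 FPKM to 0.0409, 0.0418 and 0.102 FPKM. It fell by 4.56 ± 0.41 (adjusted p = 0.000126), and its change was -5.16 without KMF replicate 3. C1rb, a protease of the classical pathway, went from 2.07, 1.79 and 2.33 FPKM to 0.122, 0.0534 and 0.0868 FPKM and fell by 4.49 ± 0.33 (adjusted p = 5.13e-05). The lines were apart for these genes. C4b, the fourth complement component, was at 1.07, 1.15 and 1.62 FPKM in ID8 and 6.79, 5.25 and 3.06 FPKM in KMF and rose by 2.02 ± 0.31 (adjusted p = 0.00146), again with the lines apart. C1rb and C4b each have a near-identical copy, C1ra and C4a, so their reads may be split. Of 22 complement regulators and receptors outside the pattern, 6 were listed, of which 5 fell (47.5% of all fitted genes). C5ar2, a complement C5a receptor that the filter removed, had 1, 0 and 2 counts in ID8 and 12, 11 and 6 counts in KMF, a ratio of 9.59 (exact 95% counting interval 2.97 to 49.2) in favour of KMF. Serping1, the C1 inhibitor, was at 4.297, 4.57 and 1.32 FPKM in ID8 and 0.144, 0.122 and 0.0341 FPKM in KMF and fell by 5.10 ± 0.67 (adjusted p = 0.000729). Cd59a, which blocks the membrane attack complex, was at 13.7, 12.2 and 12.5 FPKM in ID8 and 0.986, 1.15 and 1.2 FPKM in KMF and fell by 3.48 ± 0.14 (adjusted p = 7.38e-06). Masp1, a protease of the lectin pathway, was at 12.8, 14.1 and 14.5 FPKM in ID8 and 2.897, 1.51 and 2.52 FPKM in KMF and fell by 2.54 ± 0.22 (adjusted p = 0.000105).

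C1qtnf1 and C1qtnf7 match the pattern by their symbols but encode secreted relatives of adiponectin, not complement. C1qtnf1 was at 112, 109 and 115 FPKM in ID8 and 46.7, 46.5 and 40.5 FPKM in KMF and fell by 1.29 ± 0.08 (adjusted p = 3.26e-05), while 20.5% of its exons overlap an antisense gene. C1qtnf7 had 107, 94 and 30 counts in ID8 and 1, 3 and 2 counts in KMF, a ratio of 38.8 (exact 95% counting interval 17.6 to 107) in favour of ID8.

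Among the KMF libraries, replicate 1 was most often the highest for these genes. Of the 47 members over 1 FPKM in KMF, 28 (59.6%) were highest in replicate 1, the library of passage 14, against 32.7% of the 5675 listed genes at that level. Replicate 3, of passage 22, was the lowest for 26 of them, against 26.9% of the listed genes. A total of 12 members varied by at least 1.5-fold among the KMF libraries, and 8 of these were highest in replicate 1 and lowest in replicate 3, while of all listed genes that varied as much 37.6% were highest in replicate 1 and 30.03% lowest in replicate 3. They were Lcn2 (14.7-fold), Cxcl5 (5.07-fold), Il33 (2.73-fold), Cxcl1 (2.52-fold), Tlr2 (2.38-fold), C4b (2.22-fold), Nfkbia (1.86-fold) and Il3ra (1.79-fold). The other 4, Ccl25, Cxcl12 and Il15ra among them, were lowest in replicate 1. In ID8, 20 of the 49 members over 1 FPKM were highest in replicate 1, against 28.9% of the listed genes. In that line 8 of the 11 members that varied by at least 1.5-fold were lowest in replicate 3, as were 56.1% of the 889 listed genes that varied as much. Each passage had 1 library, so passage and library cannot be told apart and no test was made, and the pattern was chosen after its values were seen.

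**Figure D5:**
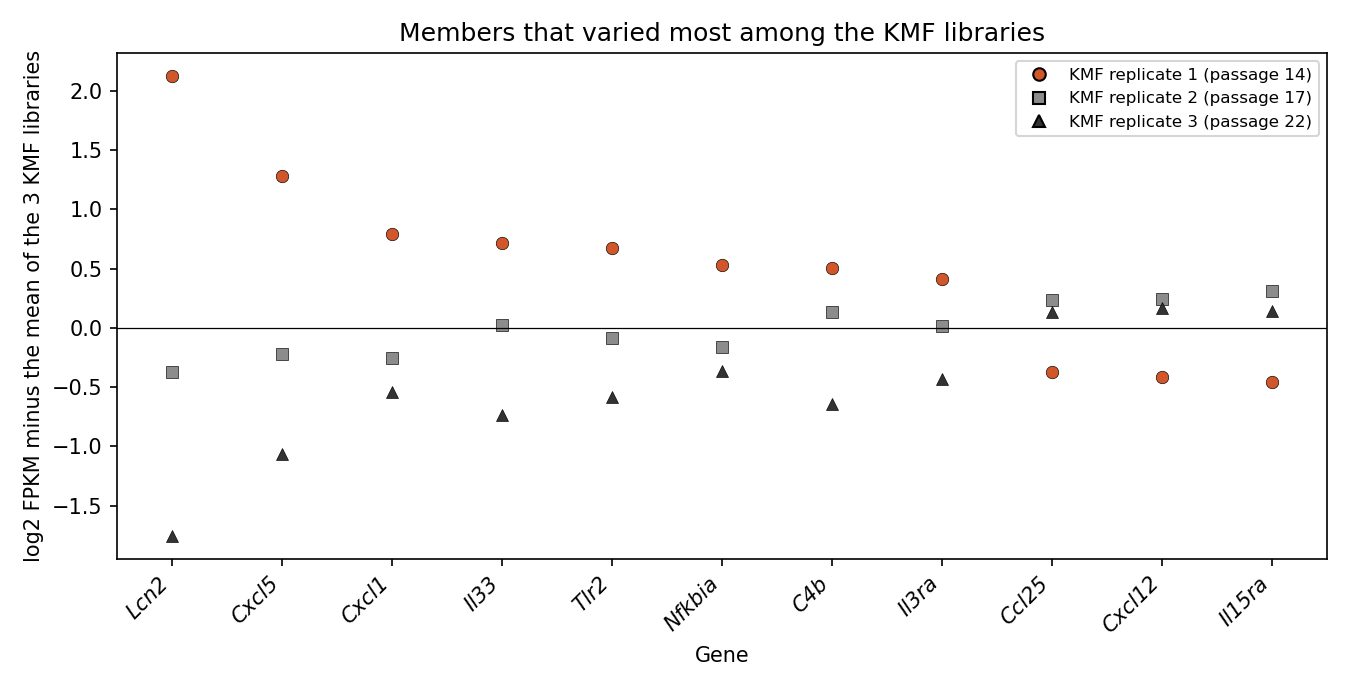
Log2 FPKM of each KMF library minus the mean of the 3 KMF libraries (y axis) for 11 members that varied by at least 1.5-fold within KMF, with a symbol for each replicate and its passage. Replicate 1 lies highest for 8 genes, furthest for Lcn2, and lowest for Il15ra, Cxcl12 and Ccl25.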

How the data were processed

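RNA-seq of 6 libraries, 3 each of ID8 and KMF, was analysed from 1 table. According to the submitters' processing notes, CASAVA 1.8, STAR 2.5, DESeq2 and mm10 were used, whereas the study's methods name TopHat2. The counting tool, annotation release and strand setting are not given in the sources used here. The authors deposited a raw count per gene and library, which was tested, and FPKM, which was printed. The deposited table also holds the gene length, which with the counts and FPKM gave the library totals (as a median over well-counted genes) and the FPKM of the floor, and for each line a mean signal (counts scaled by the authors' size factors), from which those factors were solved for 1 alternative. The authors' log2 fold change was not used, and the deposited p-value served only to find that 17359 genes had been tested and that all listed genes passed (largest adjusted p 0.0499).

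Positions are on GRCm38, since 7286 of the 7320 gene identifiers overlapped their GENCODE M21 position. A total of 14 symbols turned into dates were restored from the identifiers.

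Counts were fitted with edgeR 4.0.16 (R 4.3.3, filterByExpr, TMM scaling on library totals, glmQLFTest, two-sided, no covariate). P-values were adjusted over 17359 genes, with unlisted genes ranked below the listed ones. On simulated counts for 7320 genes, 98.5% of 200 genes changed by 1 on the log2 scale were recovered, with 1 false call. That simulation left most genes unchanged, with as many raised as lowered and a fixed spread between replicates. The deposited table holds only genes already found different. The simulation therefore cannot show how scaling or false calls behave in it. A floor of 3 counts is 0.0903 to 0.130 CPM. Replicates of a line differed beyond sampling noise.

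Named genes were, in each role, the 3 largest called changes over 1 FPKM in a line, all called members over 20 FPKM, those with 3 counts or fewer throughout a line, and those not called. Other members were named for their role. Members and lists were chosen with earlier results of these data known. Alternatives were DESeq2 1.42.0, limma 3.58.1 on log2(FPKM + 1) and log2(FPKM + 0.1), other scalings and filters, a replicate block and leaving out each library. A few items are not reported here.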

Additional observations from a re-analysis of the deposited data

How the results depend on the processing

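Under 15 alternatives, from 47 to 69 of the members were called, against 62 in the reported test. DESeq2 called 69 and upper quartile scaling 58, and a minimum of 10 counts in every library left 47. Leaving out 1 library at a time gave 49 to 60 calls. No member reversed direction. Of the 62 called members, 45 kept the call under every alternative in which they could be tested, 17 lost it in at least 1, and each of the 4 that were not called passed in at least 1. With the replicate block, 58 members were called, 35 higher and 23 lower. Deviations of samples with the same number had correlations of 0.077, -0.133 and 0.088 over 6967 genes. For samples with different numbers they ranged from -0.223 to 0.207. These values gave no sign that the numbers pair the samples, but with 3 libraries per line they cannot exclude it. Upper quartile scaling moved the median of all fitted genes by -0.11 and the share of called members that were higher from 58.1% to 51.7%. That median turned from -0.23 to 0.20 with a minimum of 10 counts in every library, to 0.19 on the log2(FPKM + 1) scale and to 0.20 on the log2(FPKM + 0.1) scale, and the median of the fitted members stayed positive (0.44, 0.33 and 0.44). On the log2(FPKM + 1) scale the changes of Cxcl1, Il15ra and Cfi were 6.87, 1.77 and -1.30, since the pseudocount shrinks low genes. Depth limits, among others, Cxcl10, Ccl5, the chemokine receptors, Tlr5, Tlr7 and Nfkbid, which rest on few fragments. Serping1 had only 6, 5 and 2 counts in the KMF libraries. On the log2(FPKM + 0.1) scale the changes of Cfi, C1rb and Serping1 were smaller, at -3.42, -3.54 and -3.99.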

Other observations

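Within the CXC chemokine cluster on chromosome 5, Pf4 (platelet factor 4, Cxcl4), which lies between Cxcl5 and Cxcl15 but does not match the symbol pattern, had 9, 5 and 5 fragments in ID8 and 68, 124 and 100 in KMF and rose by 3.99 ± 0.41 (adjusted p = 0.000217). Before Cxcl5 on the chromosome, Ankrd17 fell by 0.30 ± 0.09 (adjusted p = 0.0388), a call lost in 5 of the 15 alternatives. Gm9958 had a change of -1.04 ± 0.35 that was not called (adjusted p = 0.0505) except in 8 of the 15 alternatives. Rassf6 fell by 3.73 ± 0.53 (adjusted p = 0.001004) and had a change of -4.42 without KMF replicate 2, and beyond Cxcl1 the growth factor gene Btc fell by 1.01 ± 0.19 (adjusted p = 0.00386). Alb, albumin, was removed by the filter and had 180, 136 and 1 fragments in the KMF libraries and 2, 0 and 1 in ID8, so that KMF replicate 3 differed from the others of its line.

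On chromosome 1, the listed genes that flank the interleukin 1 receptor family included Map4k4, which fell by 0.46 ± 0.10 (adjusted p = 0.00905), and Slc9a2, which fell by 3.19 ± 0.60 (adjusted p = 0.00411). Between them, Il1r1 and Il1rl2 were lower and Il18r1 and Il18rap higher in KMF. The neighbouring genes were looked at after these values were seen.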
